A study of Mus musculus with 4 samples.

Results

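The genes described here are 10 antimicrobial protein genes of mouse skin, among them both subunits of calprotectin: S100a8, S100a9, Defb6, Defb14, Reg3g, Reg1, Camp, Ngp, Slpi and Wfdc2. They were taken by symbol from the 32285 genes listed for every library, and all 10 were found. They were chosen by their levels in the treated and untreated libraries, so these levels are a description and nothing is tested on them.

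The study profiled single cells from ear and neck skin of 6 to 8 week old female C57BL/6J mice in models of atopic dermatitis. Each library held cells pooled from 3 mice, dissociated, cleared of dead cells and captured by droplet with a 3′ kit that counts molecules by unique molecular identifiers (UMIs). In the oxazolone day 10 and oxazolone day 16 libraries, mice had been sensitised with 3% oxazolone, a contact hapten, in acetone and mineral oil, and from 7 days later received 1% oxazolone every other day until harvest. In the MC903 day 9 library, mice had received 1 nmol of MC903 (calcipotriol, a vitamin D analogue) in 100 µL of ethanol on each of 9 days. The untreated library held normal skin, and no skin treated with solvent alone was analysed here. Each group was 1 library, so no difference could be set against the spread between replicates, no test was made, and every interval below covers counting error only.

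After filtering, 7723 cells of oxazolone day 10 skin, 7390 of oxazolone day 16 skin, 3714 of MC903 day 9 skin and 7224 of untreated skin remained, with median depths of 11132, 8814.5, 14382 and 10134 UMIs per cell. Any 2 libraries shared 5 to 16 cell barcodes among 4185 to 8708 each. Cells were clustered without the 10 genes and without 30 other antimicrobial genes, and a cluster was called "X-like" from its own markers. Neutrophil-like cells made up 23.0% of the kept cells at oxazolone day 10, 56.9% at oxazolone day 16, 7.94% at MC903 day 9 and 0.263% in untreated skin (1773, 4202, 295 and 19 cells).

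As background, calprotectin is a heterodimer of S100a8 and S100a9 that fills the cytosol of neutrophils and withholds zinc and manganese from microbes. It is also induced in the keratinocytes of inflamed epidermis in humans and mice. Camp (cathelicidin) and Ngp are packed into neutrophil granules while the cell matures in bone marrow, beta-defensins are made by epithelia, Reg3g and Reg1 are secreted C-type lectin family proteins known best from gut and pancreas, and Slpi and Wfdc2 are secreted proteins with whey acidic protein domains, Slpi being an inhibitor of neutrophil elastase. In droplet data, RNA freed from abundant neutrophils can enter the droplets of other cells, so the level of each gene outside neutrophil-like cells is set beside that of neutrophil marker genes below.

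The genes lie in close pairs on the chromosomes (GRCm38, GENCODE vM21). S100a8 (chr3:90668978-90670035, plus strand) and S100a9 (chr3:90692632-90695721, minus strand) are 22596 bases apart. Reg1 (chr6:78422711-78428667, plus strand) and Reg3g (chr6:78466269-78468872, minus strand) are 37601 bases apart. Defb14 (chr8:19194357-19195212, plus strand) and Defb6 (chr8:19225478-19228209, plus strand) are 30265 bases apart. Slpi (chr2:164354070-164389095, minus strand) and Wfdc2 (chr2:164562413-164568510, plus strand) are 173317 bases apart. Camp (chr9:109847379-109849617, minus strand) and Ngp (chr9:110419747-110423012, plus strand) are 570129 bases apart.

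The promoters of the S100a8 with S100a9 and of the Reg3g with Reg1 pairs are shown because the genes of each pair moved together across cell classes. Of the 10 genes, 9 had an entry in the RefSeq promoter table (GRCm38.p6), and the 250 bases before the RefSeq start of each of the 4 genes are printed 5′ to 3′ on the gene's strand. The RefSeq starts of Reg1 (78425983) and S100a8 (90669071) lie inside the GENCODE spans given for these genes, whose starts are 78422711 and 90668978, so the Reg1 window lies within its span and the S100a8 window overlaps its own. Capitals mark matches, on either strand, to 4 letter patterns: TTGCNNAA (C/EBP), TTCNNNGAA (STAT), TGANTCA (AP-1) and, for NF-kB, GGG, any pair of bases, TT, any base and CC, where N is any base.
S100a8 (chr3:90668821-90669070, plus strand): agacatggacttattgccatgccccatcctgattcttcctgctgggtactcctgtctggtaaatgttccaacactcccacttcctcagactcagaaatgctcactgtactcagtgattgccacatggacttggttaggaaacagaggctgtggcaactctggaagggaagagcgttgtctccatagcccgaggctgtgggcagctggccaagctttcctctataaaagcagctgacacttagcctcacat
S100a9 (chr3:90695722-90695971, minus strand): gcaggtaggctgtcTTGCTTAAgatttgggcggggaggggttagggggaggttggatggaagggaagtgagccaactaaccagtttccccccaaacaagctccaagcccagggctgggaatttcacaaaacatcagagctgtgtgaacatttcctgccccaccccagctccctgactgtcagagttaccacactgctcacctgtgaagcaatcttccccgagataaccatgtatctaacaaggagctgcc
Reg3g (chr6:78468875-78469124, minus strand): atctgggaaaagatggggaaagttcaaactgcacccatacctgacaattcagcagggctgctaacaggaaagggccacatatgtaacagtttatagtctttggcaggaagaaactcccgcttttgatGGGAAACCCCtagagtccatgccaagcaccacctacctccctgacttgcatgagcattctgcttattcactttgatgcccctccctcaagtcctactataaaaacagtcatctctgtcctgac
Reg1 (chr6:78425733-78425982, plus strand): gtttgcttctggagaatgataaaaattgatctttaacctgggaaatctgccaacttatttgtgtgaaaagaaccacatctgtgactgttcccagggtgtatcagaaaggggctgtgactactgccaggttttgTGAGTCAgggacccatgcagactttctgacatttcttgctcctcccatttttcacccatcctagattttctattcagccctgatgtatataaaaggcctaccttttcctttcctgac
The S100a9 window held 1 C/EBP pattern (bases 236 to 229 before the start), the Reg3g window 1 NF-kB pattern on the opposite strand (bases 123 to 114) and the Reg1 window 1 AP-1 pattern (bases 117 to 111). The S100a8 window held none of the 4 patterns and no window held the STAT pattern. Among 32817 promoter windows of the same length, 9.57% held the C/EBP pattern, 7.01% the STAT pattern, 6.75% the AP-1 pattern and 4.11% the NF-kB pattern, so a match describes the letters and not a bound site.

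Summed over each library, the calprotectin genes, Ngp, Slpi, Camp, Reg3g and Reg1 were higher in both oxazolone libraries than in untreated skin, while Defb6 and Wfdc2 were lower. Levels are UMIs of the gene scaled to the UMI total of the kept cells of a library and given as CPM, and in such sums fewer cells of a type and less RNA per cell cannot be told apart. Counting genes with 30 or more UMIs in the 2 libraries together, 7 of 9 were at least 2-fold higher and 2 at least 2-fold lower at oxazolone day 10 than in untreated skin, beside 12% and 10.4% of all genes measured. In the same count at oxazolone day 16, 8 of 10 were higher and 2 lower than in untreated skin, beside 15% and 39.4% of all genes. For MC903 day 9, 6 of 9 were higher and 1 lower than in untreated skin, beside 12.5% and 12.2% of all genes. The median log2 ratio over untreated skin was 6.63 for the members and -0.03 for all genes at oxazolone day 10, 6.18 and -0.72 at oxazolone day 16, and 4.56 and -0.04 at MC903 day 9. These 3 comparisons share the untreated library, which held 19 neutrophil-like cells.

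**Figure D1:**
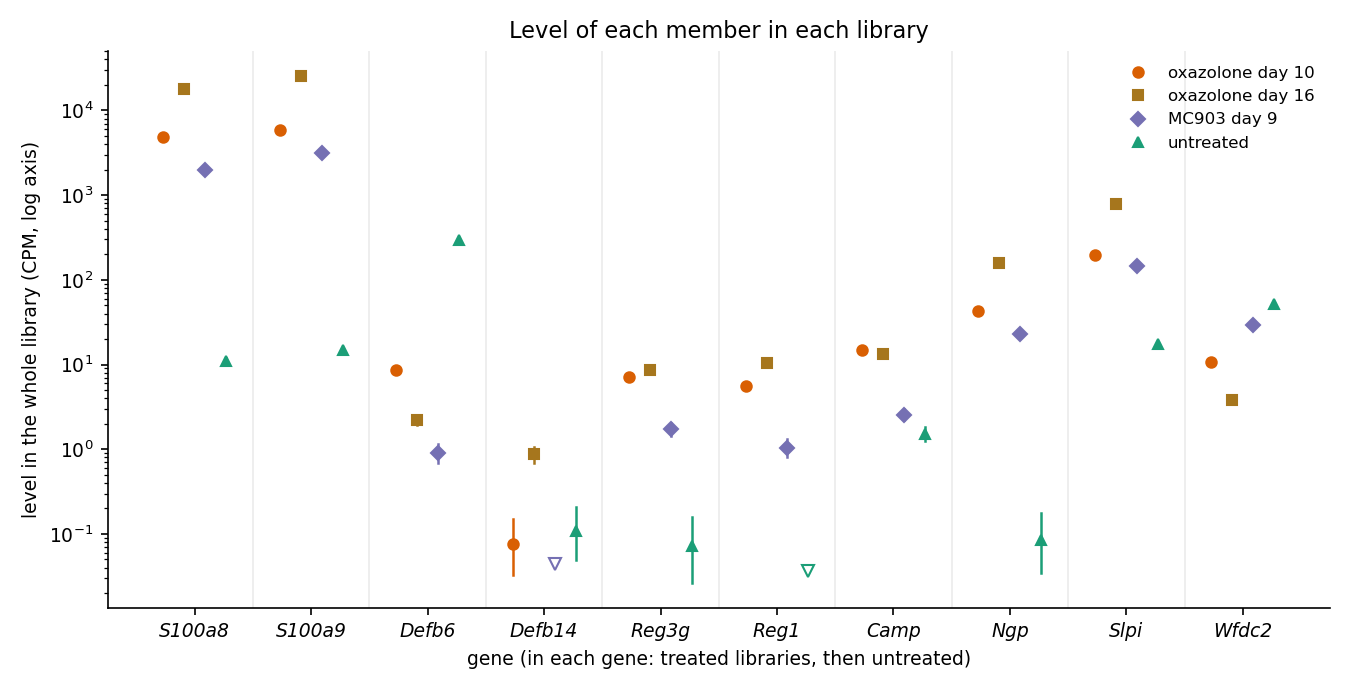
Level of each of the 10 genes over the whole library, in CPM on a log axis, at oxazolone day 10, oxazolone day 16, MC903 day 9 and in untreated skin; each point is 1 library and open triangles are genes with 0 UMIs, drawn at the level of 3 UMIs. S100a8 and S100a9 sit at 1994 CPM or higher in all 3 treated libraries and at 11.1 and 15.01 CPM in untreated skin, and Defb6 and Wfdc2 are the genes whose untreated point is highest.

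S100a8 stood at 4905 CPM at oxazolone day 10, 17712 at oxazolone day 16, 1994 at MC903 day 9 and 11.1 in untreated skin (518054, 1732413, 136919 and 914 UMIs). S100a9 stood at 5894, 25411, 3102 and 15.01 CPM in the same libraries. Both subunits were highest at oxazolone day 16 and lowest in untreated skin. Over untreated skin, S100a8 was 443-fold higher at oxazolone day 10 (log2 8.79, 95% interval 8.70 to 8.89), 1599-fold at oxazolone day 16 and 180-fold at MC903 day 9. The same ratios for S100a9 were 393-fold, 1693-fold and 207-fold. S100a8 was 3.61-fold and S100a9 4.31-fold higher at oxazolone day 16 than at oxazolone day 10.

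Ngp, a neutrophil granule protein of the cathelicidin-related family, stood at 42.6 CPM at oxazolone day 10, 160 at oxazolone day 16, 22.6 at MC903 day 9 and 0.0848 in untreated skin, where 7 UMIs were counted. Camp stood at 14.9, 13.4, 2.56 and 1.52 CPM. Camp was 9.85-fold higher at oxazolone day 10 and 8.81-fold at oxazolone day 16 than in untreated skin, and at MC903 day 9 the ratio was 1.69 (log2 0.76, interval 0.42 to 1.10), under 2-fold. Slpi stood at 195, 788, 145 and 17.7 CPM, which was 11.01-fold, 44.5-fold and 8.16-fold higher in the treated libraries than in untreated skin.

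Reg3g stood at 7.205 CPM at oxazolone day 10, 8.56 at oxazolone day 16, 1.72 at MC903 day 9 and 0.0727 in untreated skin (761, 837, 118 and 6 UMIs). Reg1 stood at 5.57, 10.4 and 1.03 CPM in the treated libraries (588, 1021 and 71 UMIs) and had 0 UMIs in untreated skin. Both genes were thus close to undetected in untreated skin and highest at oxazolone day 16. Reg3g was 99.1-fold, 118-fold and 23.6-fold higher than in untreated skin, with log2 intervals of 5.50 to 8.08, 5.75 to 8.33 and 3.40 to 6.04. Set against a floor of 3 UMIs in the untreated library, Reg1 was at least 153-fold, 287-fold and 28.4-fold higher.

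Defb6 (beta-defensin 6) ran the other way, with 8.71 CPM at oxazolone day 10, 2.23 at oxazolone day 16, 0.903 at MC903 day 9 and 293 in untreated skin (920, 218, 62 and 24139 UMIs). It was 33.6-fold lower at oxazolone day 10, 131-fold lower at oxazolone day 16 and 324-fold lower at MC903 day 9 than in untreated skin. Wfdc2 stood at 10.6, 3.81, 29.3 and 51.2 CPM, which was 4.85-fold lower at oxazolone day 10, 13.4-fold lower at oxazolone day 16 and 1.75-fold lower at MC903 day 9. Defb14 was rare everywhere, with 8, 85, 0 and 9 UMIs.

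Between the treated libraries, 5 of the 10 genes were at least 2-fold higher and 2 at least 2-fold lower at oxazolone day 16 than at oxazolone day 10, beside 9.31% and 32.2% of all genes. The 5 were S100a8, S100a9, Ngp (3.75-fold), Slpi (4.04-fold) and Defb14 (11.5-fold, from few UMIs), and the 2 were Defb6 and Wfdc2. Between MC903 day 9 and oxazolone day 16, 1 of 10 was higher at MC903 day 9 and 9 were lower, beside 32.2% and 11.8% of all genes. The 1 was Wfdc2, 7.67-fold higher at MC903 day 9 (log2 2.94, interval 2.78 to 3.10). The neutrophil-like share of cells, 7.94% at MC903 day 9 and 56.9% at oxazolone day 16, differed in the same direction as the 9 lower genes. At oxazolone day 16 neutrophil-like cells held 84.1% to 98.4% of the UMIs of S100a8, S100a9, Ngp, Camp and Slpi. They held 44.7% for Defb14, 3.67% for Defb6, 0.686% for Reg1 and 0.597% for Reg3g. The part of the neutrophil-like share in the library sums was not tested.

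Most calprotectin UMIs sat in neutrophil-like cells, which were named from Csf3r, Cxcr2, Retnlg, Il1r2, Mmp9, Trem1, Clec4e and Hcar2. They held 97.6% of S100a8 UMIs at oxazolone day 10, 96.2% at oxazolone day 16, 66.1% at MC903 day 9 and 83.6% in untreated skin. For S100a9 the shares were 98.0%, 97.2%, 68.2% and 94.1%. Within neutrophil-like cells, S100a8 stood at 53897, 50703, 41106 and 14913 CPM and S100a9 at 65088, 73460, 65983 and 22740 CPM. Thus levels per neutrophil-like UMI in the 3 treated libraries lay far closer together than the library sums did. The untreated value came from 19 cells.

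Of the granule genes, Ngp had 98.7% of its UMIs in neutrophil-like cells at oxazolone day 10, 98.4% at oxazolone day 16 and 53.0% at MC903 day 9. Its level in those cells was 474, 467 and 374 CPM. Camp had 91.1% of its UMIs there at oxazolone day 10, 96.2% at oxazolone day 16 and 6.25% at MC903 day 9, with levels of 153 and 38.2 CPM at the oxazolone days and 11 UMIs at MC903 day 9. Between oxazolone days, 1 of 6 measured genes was at least 2-fold higher in neutrophil-like cells (Defb14, from 38 UMIs against 0) and 1 at least 2-fold lower, beside 10.1% and 32.5% of all genes. The lower gene was Camp, at a ratio of 0.249 for oxazolone day 16 over day 10 (log2 -2.00, interval -2.11 to -1.89). Between MC903 day 9 and oxazolone day 16, 0 of 6 were higher and 1, again Camp, was lower (log2 -2.93, interval -3.94 to -2.09), beside 19.6% and 5.30% of all genes.

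Camp was carried by few neutrophil-like cells, 85 of 1773 at oxazolone day 10, 110 of 4202 at oxazolone day 16 and 4 of 295 at MC903 day 9. The 5 highest cells held 70.0% of its UMIs at oxazolone day 16 and 61.3% at oxazolone day 10, with up to 284 and 282 UMIs in 1 cell. Genes of neutrophil precursors had few UMIs in neutrophil-like cells of the treated libraries. Elane had 1, 0 and 0 UMIs, Mpo 0, 20 and 4, Prtn3 11, 28 and 3, Cebpe 27, 81 and 8, and Ctsg none. Ltf had 734, 1169 and 39 UMIs, and the later granule gene Mmp8 had 12165, 16472 and 1403 UMIs. These are sums over the class, so they do not describe the few cells that held Camp.

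The neutrophil-like class was made of different clusters in each library. At oxazolone day 10, 1407 of its cells lay in cluster B2 (led by Retnlg, Mmp8 and Cxcr2), as did 15 of the 19 untreated cells. Most cells of oxazolone day 16 lay in B1 (Cd274, Rsad2; 1532 cells), B0 (Il1a, Il1rn, Tnf; 1526 cells) and B5 (Ly6g, Mmp8, Cd177; 981 cells). Of the MC903 day 9 cells, 117 lay in B13 (Trem3, Nlrp3, Il1b) and 62 in B0.

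Within clusters, calprotectin was highest where Mmp8 was among the leading genes. S100a9 stood at 68687, 116621 and 95159 CPM in B2 at oxazolone day 10, oxazolone day 16 and MC903 day 9, and at 76511, 110479 and 118680 CPM in B5. In B0 it stood at 28476, 43349 and 42510 CPM and in B13 at 42468, 45475 and 39317 CPM. S100a9 was higher at oxazolone day 16 than at oxazolone day 10 in each of the 5 clusters, although the class as a whole differed by a ratio of 1.13. S100a8 followed the same order, with 56491, 89327 and 72913 CPM in B2 and 27550, 33267 and 28477 CPM in B0.

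Camp at oxazolone day 16 stood at 107 CPM in B5, 153 CPM in B2 and 3.02 CPM in B0. The same clusters held 682, 123 and 7.53 CPM of Camp at oxazolone day 10. The day 10 level of B5 came from 494 UMIs in 6 of 122 cells, 282 of them in 1 cell, and that of B0 from 6 UMIs. Ngp in B5 stood at 960 CPM at oxazolone day 16 and 1394 CPM at oxazolone day 10, and in B0 at 122 and 143 CPM. Slpi, unlike the granule genes, was highest in B1, at 4931 CPM at oxazolone day 10, 2443 CPM at oxazolone day 16 and 5044 CPM at MC903 day 9. B1 held 22 cells at oxazolone day 10 and 47 at MC903 day 9.

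**Figure D2:**
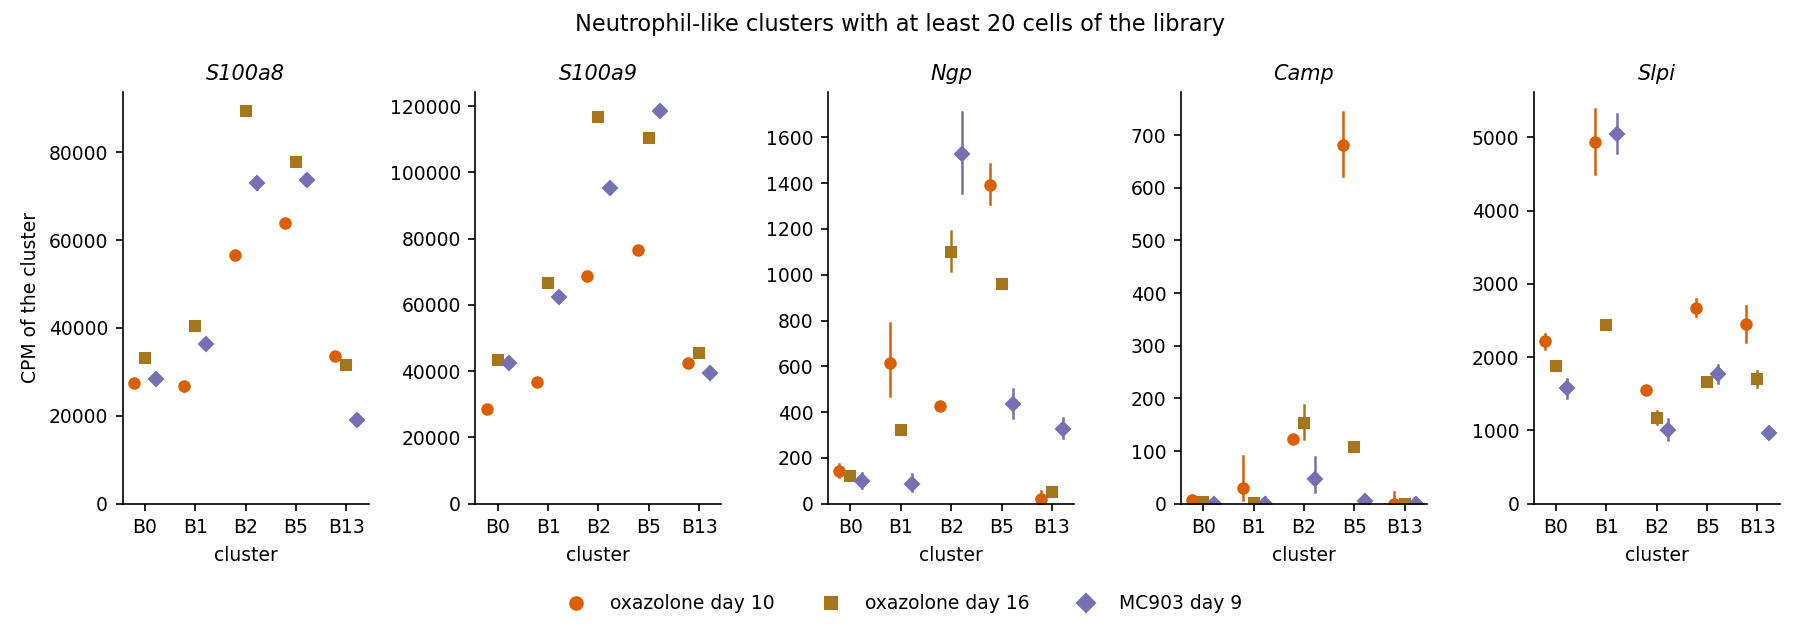
Levels of S100a8, S100a9, Ngp, Camp and Slpi (CPM, linear axes starting at 0) in the neutrophil-like clusters B0, B1, B2, B5 and B13 at oxazolone day 10, oxazolone day 16 and MC903 day 9, for clusters with at least 20 cells of a library. S100a9 is highest in B2 and B5, Slpi is highest in B1, and Camp reaches 682 CPM in B5 at oxazolone day 10, from 6 of 122 cells.

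Outside neutrophil-like cells, S100a8 stood at 131 CPM at oxazolone day 10, 1006 at oxazolone day 16, 699 at MC903 day 9 and 1.82 in untreated skin, and S100a9 at 127, 1080, 1020 and 0.885 CPM. To place these levels, each class was expressed as a percent of the neutrophil-like level of the same library, for S100a8, S100a9 and each of the 8 neutrophil markers. RNA from 1 source keeps its genes in 1 ratio, so RNA of the average neutrophil-like cell would give calprotectin and the markers the same percent. The neutrophil-like clusters differ in their levels of these genes, and which of them gave RNA was not tested, so the comparison is a yardstick only. Il1r2 and Hcar2 were also present in untreated fibroblast-like cells (7355 UMIs of Il1r2) and keratinocyte-like cells (152 UMIs of Hcar2), so cells were also split by the other 6 markers, a set chosen after seeing the data. The 6 were not confined to neutrophil-like cells, which held 98 of 367 Clec4e and 108 of 279 Csf3r UMIs in untreated skin. Macrophage-like cells held 83 and 64, dendritic-like cells 115 and 76, and monocyte-like cells 61 and 13. Basophil-like cells held 9 of 58 Cxcr2 UMIs. In these classes the split may thus also sort cells by their own expression.

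In keratinocyte-like cells, calprotectin lay at or under the level of the neutrophil markers. S100a8 reached 0.101% of the neutrophil-like level at oxazolone day 10, 0.228% at oxazolone day 16 and 0.0343% at MC903 day 9. The median of the 8 markers was 0.173%, 0.413% and 0.056%. S100a9 lay lower still, at 0.0890%, 0.181% and 0.0278%. Only the basal and upper follicle keratinocyte-like clusters make up this class. Hair shaft or inner root sheath-like clusters and sebaceous-like ones are not in it. The clusters behind the class differed between libraries, as given with Defb6. K0, K12 and K14 (the last led by Krt2 and Krt10) held 442, 96 and 85 cells in untreated skin. They held 3, 1 and 4 cells at oxazolone day 10 and 0 at oxazolone day 16 and MC903 day 9. The class values thus say little about calprotectin in treated cells of these clusters. In CPM, S100a8 stood at 54.6, 116, 14.1 and 0.670 in keratinocyte-like cells of oxazolone day 10, oxazolone day 16, MC903 day 9 and untreated skin (1001, 241, 53 and 17 UMIs). Chondrocyte-like cells, from the ear cartilage, reached 0.0870%, 1.32% and 0.0377% for S100a8, with marker medians of 0.160%, 1.52% and 0.0881%.

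In fibroblast-like cells, calprotectin stood at 0.0963% (S100a8) and 0.101% (S100a9) of the neutrophil-like level at oxazolone day 10, with a marker median of 0.171%. At oxazolone day 16 it stood at 1.28% and 1.33%, with a marker median of 1.14%, and at MC903 day 9 at 1.96% and 1.91%, with a marker median of 1.69%. At MC903 day 9 Cxcr2 and Csf3r, both neutrophil receptors, reached 1.67% and 1.71%, and S100a8 and S100a9 stood at 1.16 and 1.13 times the marker median. In CPM, fibroblast-like S100a8 stood at 51.9, 649, 806 and 1.46 and S100a9 at 65.9, 978, 1260 and 2.59 at oxazolone day 10, oxazolone day 16, MC903 day 9 and in untreated skin.

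At MC903 day 9 the fibroblast-like calprotectin UMIs were concentrated in cells that also carried neutrophil markers. The 5 cells with most S100a8 and S100a9 UMIs held 44.6% of the class total at MC903 day 9, and the same 5 cells held 37.0% of the UMIs of the 6 markers. In the 924 fibroblast-like cells with 0 UMIs of the 6 markers, S100a8 stood at 12.6 CPM, against 806 CPM in the class. The contrast was smaller at the oxazolone days. There, fibroblast-like cells without these markers stood at 28.8 against 51.9 CPM at day 10 and 133 against 649 CPM at day 16. In such cells S100a8 at MC903 day 9 was 12.6 CPM in fibroblast-like, 13.2 in keratinocyte-like and 14.8 in chondrocyte-like cells. The same 3 values were 133, 116 and 124 CPM at oxazolone day 16 and 28.8, 44.3 and 33.9 CPM at oxazolone day 10. Macrophage-like cells with no marker UMI stood higher, at 75.7, 299.5 and 50.9 CPM at oxazolone day 10, oxazolone day 16 and MC903 day 9, the last from 21 UMIs, as did melanocyte-like cells, at 66.8 CPM at oxazolone day 10 and 44.3 CPM at MC903 day 9, and the 23 monocyte-like cells of oxazolone day 10, at 1038 CPM.

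The highest percents outside leukocytes came from classes of few cells. Lymphatic endothelial-like cells numbered 51 at oxazolone day 16 and 58 at MC903 day 9. In lymphatic endothelial-like cells S100a8 reached 7.22% of the neutrophil-like level at oxazolone day 16 and 11.3% at MC903 day 9, with marker medians of 6.29% and 9.87%. In melanocyte-like cells at MC903 day 9 it reached 14.9% with a marker median of 9.75%, and 5 of 60 cells held 99.8% of the calprotectin UMIs and 99.6% of the marker UMIs. In an unnamed cluster led by Pax7 and Myf5, genes of muscle stem cells, S100a8 reached 17.0% at MC903 day 9. The marker median in these 57 cells was 17.4%.

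**Figure D3:**
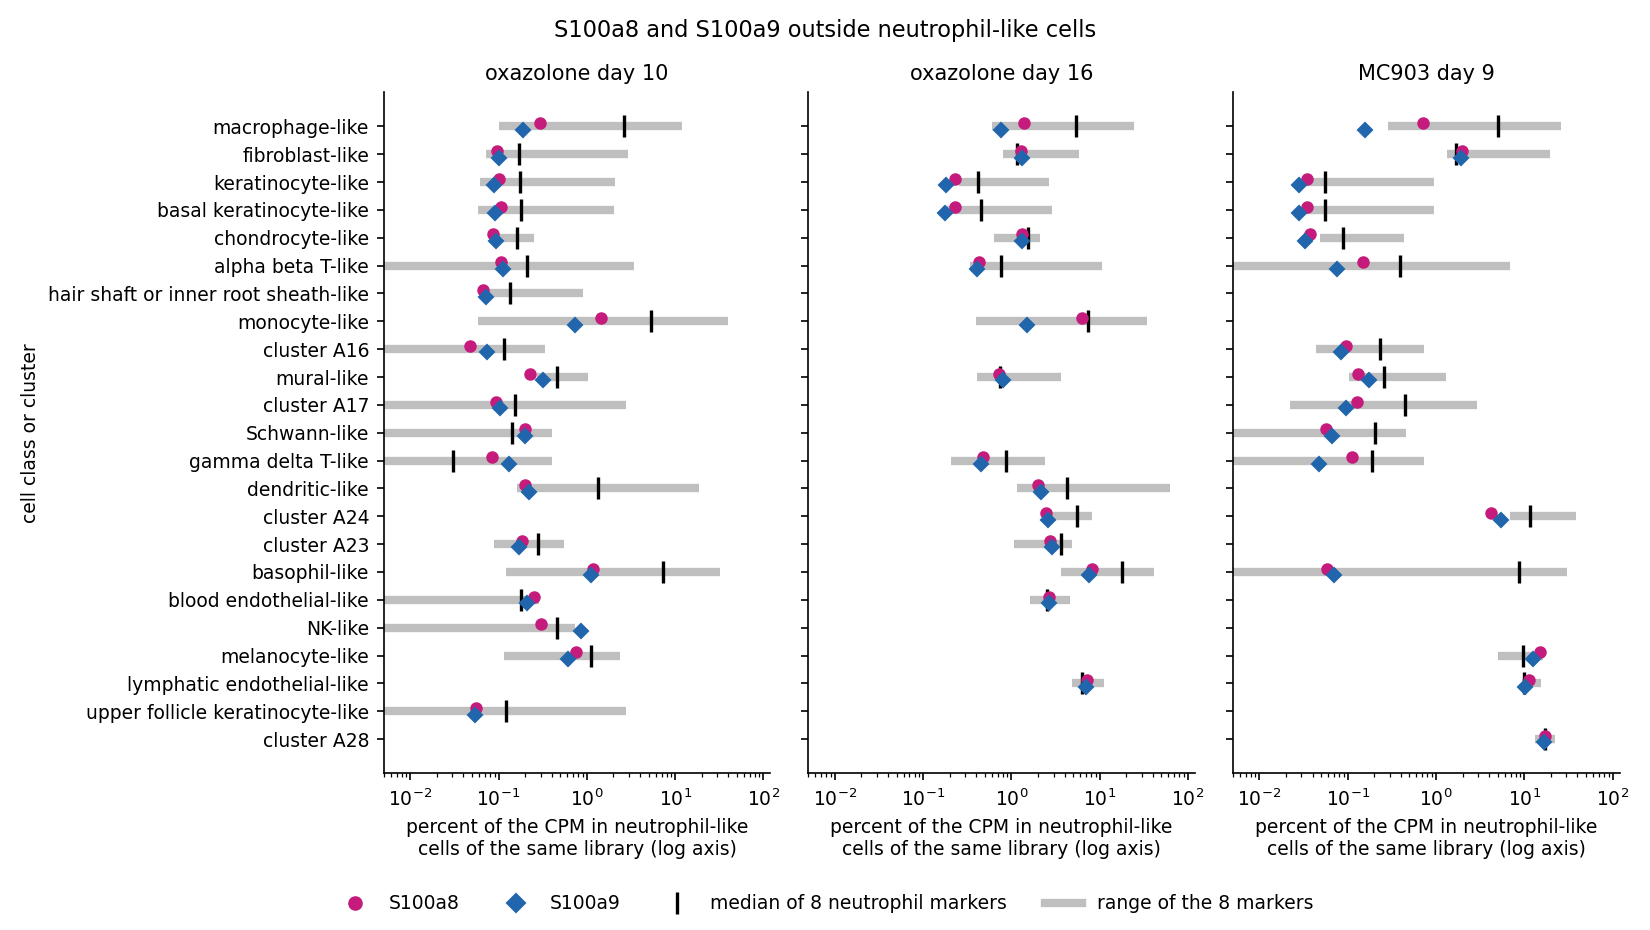
S100a8 and S100a9 (points) as percent of the level in neutrophil-like cells of the same library, by class, on a log axis, for oxazolone day 10, oxazolone day 16 and MC903 day 9; grey bars span the 8 neutrophil markers, black ticks are their median, and ranges that reach 0 are cut at the left edge. Fibroblast-like, chondrocyte-like and keratinocyte-like points lie near or left of the tick.

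Monocyte-like cells carried the pair in another proportion. The ratio of S100a8 to S100a9 UMIs in neutrophil-like cells was 0.828 at oxazolone day 10, 0.690 at oxazolone day 16, 0.623 at MC903 day 9 and 0.656 in untreated skin. In monocyte-like cells (384, 156 and 32 cells; cluster B7, led by F13a1 and Ms4a4c) it was 1.63 at oxazolone day 10 (interval 1.55 to 1.72), 2.91 at oxazolone day 16 (2.81 to 3.02) and 12.4 at MC903 day 9 (10.1 to 15.6). None of these intervals reached the neutrophil-like ratio of its library. Their S100a8 level was 775, 3175 and 1704 CPM and their S100a9 level 475, 1090 and 137 CPM.

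Set against the neutrophil-like level, monocyte-like S100a8 reached 1.44%, 6.26% and 4.15%, while Retnlg, a secreted protein gene of neutrophils, reached 0.144%, 0.399% and 0.0503%. S100a9 reached 0.730%, 1.48% and 0.207%. The median of the 8 markers was 5.29%, 7.42% and 6.99%, above both subunits, with Clec4e at 39.6%, 34.7% and 37.4% and Csf3r at 5.97%, 10.4% and 12.05%. Calprotectin thus lay between Retnlg and the median in each library, and the marker percents did not place it. Without the 5 cells of most calprotectin UMIs, the ratio at oxazolone day 10 was 2.64.

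Macrophage-like cells (1535, 1322 and 147 cells) had S100a8 to S100a9 ratios of 1.31 (interval 1.24 to 1.38), 1.26 (1.23 to 1.29) and 2.86 (2.55 to 3.22). Most lay in B3 (C1qb, C1qa) at oxazolone day 10 and in B4 (Arg1, Ccl24) at oxazolone day 16 and MC903 day 9. Their S100a8 level was 160, 698 and 293 CPM. In the 380, 94 and 21 macrophage-like cells with 0 UMIs of the 6 markers the ratio was 0.964, 0.938 and 1.00, the last from 21 UMIs of each gene. S100a8 was 0.297%, 1.38% and 0.714% of the neutrophil-like level, beside 0.101%, 0.609% and 0.285% for Retnlg and medians of 2.66%, 5.34% and 5.06% over the 8 markers. S100a8 was thus above Retnlg and below the median. Csf3r reached 4.45%, 10.7% and 5.05% and Clec4e 11.8%, 24.7% and 15.3% in macrophage-like cells.

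Fibroblast-like cells kept ratios near the neutrophil-like ones, at 0.787, 0.664, 0.640 and 0.567 from oxazolone day 10, oxazolone day 16, MC903 day 9 and untreated skin. Keratinocyte-like cells stood at 0.943, 0.870, 0.768 and 4.25, the last from 17 and 4 UMIs.

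**Figure D4:**
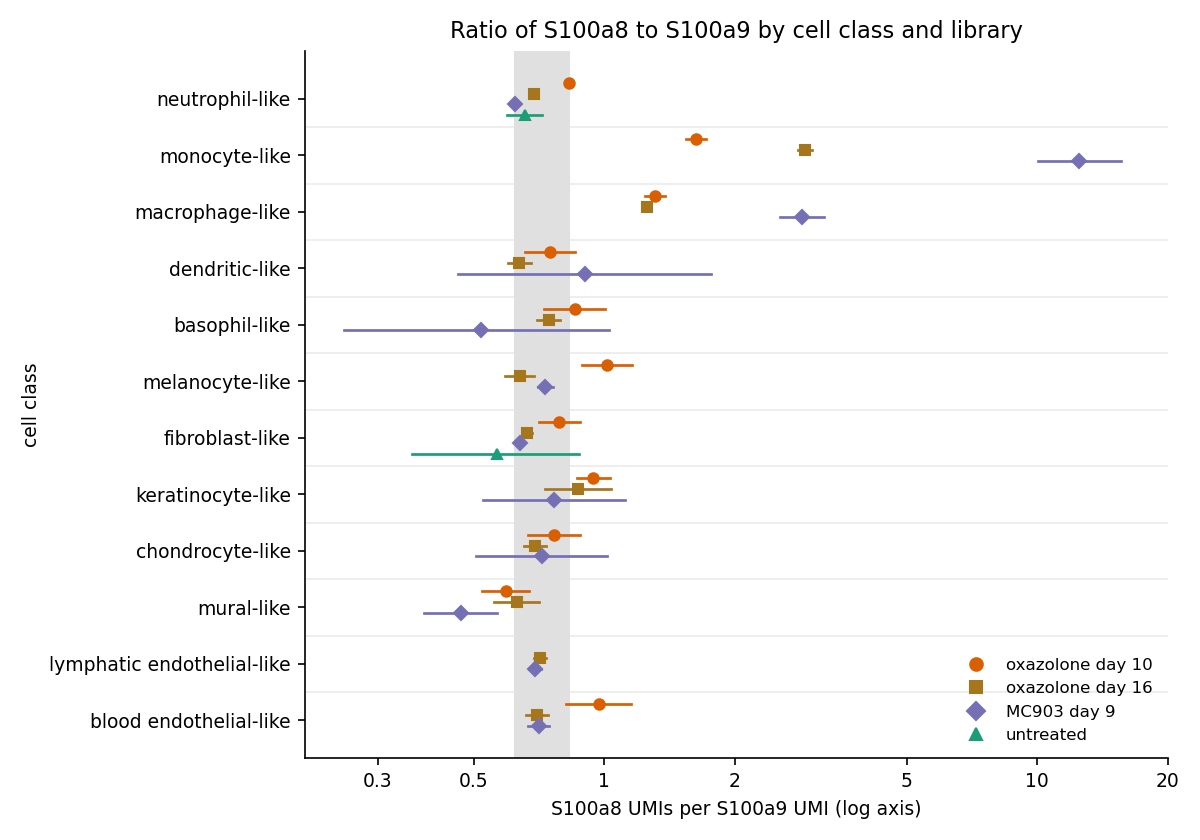
Ratio of S100a8 to S100a9 UMIs by class on a log axis, for oxazolone day 10, oxazolone day 16, MC903 day 9 and untreated skin, with 95% counting intervals; the grey band is the range of the 4 neutrophil-like ratios. Monocyte-like cells lie at 1.63 to 12.4, right of the band, and fibroblast-like cells lie at 0.567 to 0.787.

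Melanocyte-like cells of untreated skin also carried S100a8 without S100a9. They held 80 S100a8 UMIs in 33 of 224 cells (14.7%), with at most 11 in a cell, and 0 S100a9 UMIs, while the other untreated cells outside the neutrophil-like class had S100a8 in 38 of 6981 cells (0.544%). After thinning every cell to 1000 UMIs the shares were 4.59% and 0.0875%. The median depth was lower in the melanocyte-like cells, at 3454 UMIs, than in the others, at 10389. In melanocyte-like cells with 0 UMIs of the 6 markers, S100a8 and S100a9 had 51 and 27 UMIs at oxazolone day 10 and 24 and 10 at MC903 day 9.

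Reg3g and Reg1 were found in fibroblast-like cells and hardly in the keratinocyte-like ones captured, where Reg3g had 1, 1, 0 and 0 UMIs and Reg1 none. Clusters K0, K12 and K14 held 3, 1 and 4 cells at oxazolone day 10 and 0 at oxazolone day 16 and MC903 day 9. The counts thus say little about Reg3g and Reg1 in treated cells of these clusters. Fibroblast-like cells (397, 346, 1083 and 1735 cells) held 99.2% of Reg3g UMIs at oxazolone day 10, 97.6% at oxazolone day 16, 99.2% at MC903 day 9 and 100% of the 6 in untreated skin. They held 99.8%, 98.0% and 100% of Reg1 UMIs in the treated libraries. Neutrophil-like cells held 1, 5, 0 and 0 UMIs of Reg3g and 0, 7, 0 and 0 of Reg1.

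In fibroblast-like cells, Reg3g stood at 65.8 CPM at oxazolone day 10 (interval 61.2 to 70.7), 64.4 at oxazolone day 16 (60.0 to 69.0), 4.05 at MC903 day 9 (3.35 to 4.86) and 0.259 in untreated skin (0.0949 to 0.563). Reg1 stood at 51.2 (47.1 to 55.5), 78.9 (74.1 to 83.9) and 2.46 (1.92 to 3.10) CPM, with 0 UMIs in untreated skin. Reg3g did not differ between the oxazolone days beyond counting error, and Reg1 was 1.54-fold higher at day 16 than at day 10. Against untreated fibroblast-like cells Reg3g was 255-fold, 249-fold and 15.7-fold higher, and Reg1 at least 396-fold, 610-fold and 19.03-fold higher.

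The fibroblast-like class was made of different clusters in each library. Cluster A7, led by the chemokine gene Cxcl5, Saa3, Ptx3, Tnc and Timp1, held 295 of the cells at oxazolone day 10 and 290 at oxazolone day 16, 57 at MC903 day 9 and 382 in untreated skin. At MC903 day 9, 1004 cells lay in A6 (Cxcl13, Inmt), and in untreated skin 677 lay in A12 (Cilp, Col1a1, Postn) and 610 in A18 (Efemp1, Pi16). Within A7 alone, Reg3g had 751, 814, 80 and 1 UMIs and Reg1 544, 1000, 16 and 0. This gave A7 levels of Reg3g of 76.5, 67.0, 36.9 and 0.182 CPM, so the difference between oxazolone and untreated skin was also present within this cluster. All 80 of the MC903 UMIs of Reg3g in A7 came from 1 cell.

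Both genes were uneven among cells. Reg3g was counted in 35 of 397 fibroblast-like cells at oxazolone day 10, 33 of 346 at oxazolone day 16, 6 of 1083 at MC903 day 9 and 3 of 1735 in untreated skin, with up to 240, 141, 80 and 4 UMIs in a cell. The 5 highest cells held 69.5% and 66.6% of Reg3g UMIs and 54.7% and 54.8% of Reg1 UMIs at oxazolone days 10 and 16. After thinning to 1000 UMIs, 2.80% and 3.29% of fibroblast-like cells had Reg3g at the oxazolone days, against 0.0968% at MC903 day 9.

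Cells with the one often had the other. In A7 at oxazolone day 10, 52.9% of the 34 cells with Reg3g also had Reg1, against 8.05% of the cells without Reg3g. At oxazolone day 16 these shares were 46.7% and 8.85%. Cells with Reg3g were deeper, at median depths of 41360 against 31311 UMIs at oxazolone day 10 and 55044 against 39290 at oxazolone day 16, and the part of depth in the overlap was not tested. In fibroblast-like cells with 0 UMIs of the 6 neutrophil markers, Reg3g stood at 60.7, 37.6 and 5.05 CPM and Reg1 at 53.6, 70.2 and 2.46 CPM, against 65.8, 64.4 and 4.05 CPM for Reg3g and 51.2, 78.9 and 2.46 CPM for Reg1 in the whole class.

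**Figure D5:**
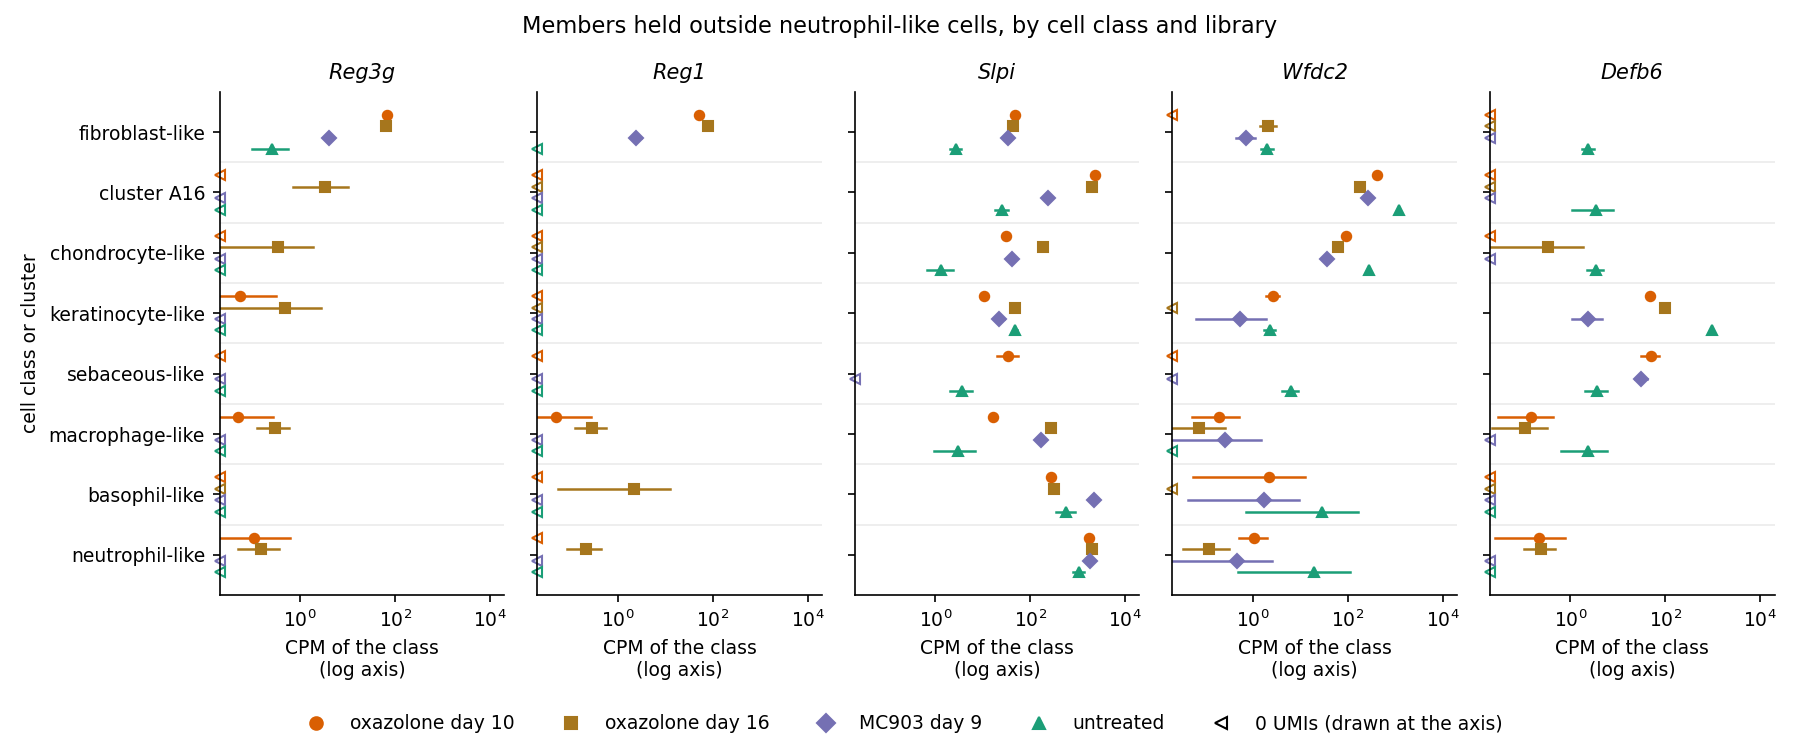
Levels of Reg3g, Reg1, Slpi, Wfdc2 and Defb6 (CPM, log axes) in selected classes and clusters at oxazolone day 10, oxazolone day 16, MC903 day 9 and in untreated skin; open left-pointing triangles at the axis are 0 UMIs. Reg3g and Reg1 lie highest in fibroblast-like cells of both oxazolone libraries, and Wfdc2 and Defb6 are highest in untreated skin.

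Counted over the genes with at least 30 UMIs, 6 of 8 were at least 2-fold higher and 2 lower in fibroblast-like cells of oxazolone day 10 than of untreated skin, beside 8.69% and 8.07% of all genes in that class. For oxazolone day 16, 6 of 8 were higher and 1 lower, beside 9.73% and 14.2%, and at MC903 day 9, 7 of 9 were higher and 2 lower, beside 11.3% and 10.2%. These counts take in S100a8, S100a9 and Slpi, whose percents of the neutrophil-like level in the class were given with those of the markers. Among fibroblast-like cells of MC903 skin with 0 UMIs of the 8 markers, 2 genes were higher. The share of all genes was not counted in those cells, so this number has no yardstick.

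Camp outside neutrophil-like cells was low. Fibroblast-like cells stood at 7.85 CPM at oxazolone day 10, 2.92 at oxazolone day 16, 4.95 at MC903 day 9 and 0.603 in untreated skin (90, 37, 143 and 14 UMIs). Of the 143 UMIs at MC903 day 9, 104 came from 1 cell. In untreated skin keratinocyte-like cells held 85 of the 125 Camp UMIs, spread over 66 cells, at most 4 in a cell, with levels in the class of 0.983, 0.480 and 0.798 CPM in the 3 treated libraries and 3.35 CPM in untreated skin. In fibroblast-like cells of MC903 skin Ngp reached 4.73% of the neutrophil-like level, above the marker median of 1.69%, with 165 of its 511 UMIs in 1 cell.

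Most Slpi UMIs of untreated skin lay in keratinocyte-like cells, and in treated skin most lay elsewhere. Neutrophil-like cells held 79.5% of its UMIs at oxazolone day 10, 84.1% at oxazolone day 16 and 40.1% at MC903 day 9, against 3.70% in untreated skin. Keratinocyte-like cells held 84.5% of the untreated UMIs. Slpi in neutrophil-like cells stood at 1745, 1971, 1811 and 1054 CPM. The last came from 19 cells and was above the untreated keratinocyte-like level given below.

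Keratinocyte-like Slpi stood at 10.6 CPM at oxazolone day 10, 48.5 at oxazolone day 16, 22.3 at MC903 day 9 and 48.7 in untreated skin. It was lower than in untreated skin at oxazolone day 10 (log2 -2.20, interval -2.43 to -1.98) and at MC903 day 9 (log2 -1.12, interval -1.46 to -0.81), and at oxazolone day 16 the difference was within counting error. The MC903 direction turned to 0.24 when doublets were kept. In untreated skin 734 of its UMIs lay in K1 (led by Akr1c18 and Fgfbp1, 416 cells), 251 in K3 (Krt6a and cell-division histone genes) and 174 in K15. K1 held 1 cell at oxazolone day 10 and 0 at oxazolone day 16 and MC903 day 9. K15, with 85 cells in untreated skin, held 0 in each treated library. The class difference in Slpi and the near absence of K1 and K15 cells from treated libraries cannot be told apart.

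Slpi was also high in an unnamed cluster, A16, led by Angptl7, Thbs4 and Mgp (51, 44, 437 and 156 cells). It stood there at 2267 CPM at oxazolone day 10, 2001 at oxazolone day 16, 235 at MC903 day 9 and 25.1 in untreated skin (1860, 1772, 1623 and 37 UMIs). At oxazolone day 10 this was 90.4-fold higher than in untreated skin (log2 6.50, interval 6.03 to 7.01), and at MC903 day 9 9.39-fold. The oxazolone levels matched or passed those of neutrophil-like cells, at 130% and 102% of them, while the marker median in A16 was 0.114% and 0.939%. In A16 cells with 0 UMIs of the 6 markers Slpi stood at 2535, 1467, 142 and 25.2 CPM. The signal was uneven, since 26 of 51 and 31 of 44 cells had it at the oxazolone days and the 5 highest cells held 86.0% and 59.8% of the UMIs.

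Basophil-like cells (79, 57, 65 and 11 cells) carried Slpi at 278 CPM at oxazolone day 10, 324 at oxazolone day 16, 2256 at MC903 day 9 and 579 in untreated skin, the last from 20 UMIs. Slpi was 6.96-fold higher in basophil-like cells of MC903 day 9 than of oxazolone day 16 (log2 2.80, interval 2.55 to 3.06), although S100a9 was 121-fold lower there. In the 17 MC903 basophil-like cells with 0 UMIs of the 6 markers Slpi stood at 4348 CPM. Slpi was counted in 43 of the 65 MC903 basophil-like cells, with 252 of its 1316 UMIs in 1 cell. The 5 highest basophil-like cells held 50.1% of the Slpi UMIs at MC903 day 9 and 50% at oxazolone day 16. Fibroblast-like Slpi stood at 46.8, 42.9, 34.3 and 2.67 CPM, and in cells with 0 UMIs of the 6 markers at 39.3, 17.5, 4.36 and 1.39 CPM.

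Wfdc2 lay mainly in chondrocyte-like cells and in A16. Chondrocyte-like cells (cluster A3, led by Col2a1 and Acan) held 61.6% of its UMIs at oxazolone day 10, 48.5% at oxazolone day 16, 6.87% at MC903 day 9 and 54.8% in untreated skin. A16 held 30.5%, 42.1%, 91.3% and 41.3%. In chondrocyte-like cells its level was 90.2, 60.9, 36.3 and 282 CPM, and in A16 it was 414, 177, 266 and 1183 CPM. Both were thus highest in untreated skin.

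The chondrocyte-like level was 3.12-fold lower at oxazolone day 10 (log2 -1.64, interval -1.77 to -1.52), 4.62-fold lower at oxazolone day 16 and 7.77-fold lower at MC903 day 9 than in untreated skin. In A16 Wfdc2 was 2.86-fold lower at oxazolone day 10 and 4.45-fold lower at MC903 day 9. The library sum at MC903 day 9 fell less, by 0.81 on the log2 scale, and A16 made up 437 cells there against 156 in untreated skin. Thinned to 1000 UMIs, Wfdc2 was counted in 23.5%, 12.5%, 13.8% and 42.1% of A16 cells and in 6.54%, 4.59%, 2.88% and 14.6% of chondrocyte-like cells. Slpi and Wfdc2, which share the domain family and the chromosomal neighbourhood, thus differed from untreated skin in opposite directions in A16.

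Defb6 was a keratinocyte gene, with 95.9% of its UMIs in keratinocyte-like cells at oxazolone day 10, 93.1% at oxazolone day 16, 14.5% at MC903 day 9 and 99.1% in untreated skin. Its level in keratinocyte-like cells (738, 59, 98 and 1703 cells) was 48.2 CPM (interval 45.0 to 51.4), 97.5 (84.5 to 112), 2.39 (1.09 to 4.54) and 943 (931 to 955). This was lower than in untreated skin by 4.29, 3.27 and 8.62 on the log2 scale. Of its 62 UMIs at MC903 day 9, 50 lay in sebaceous-like cells.

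The untreated signal sat in a small part of the class. Cluster K12, led by Cst6, Krt79 and Sprr1a and upper follicle keratinocyte-like by its markers, held 20259 of the untreated UMIs in 96 cells, 83.9% of the library's Defb6, at 14304 CPM. Defb6 was counted in 93.8% of those cells, with up to 1664 UMIs in 1. Only 1 other cell of K12 was found, at oxazolone day 10, so no level of treated K12 cells could be set beside it. Lower levels were found in untreated K11 (742 CPM, 126 cells), K0 (337 CPM, 442 cells), K3 (115 CPM, 173 cells) and K1 (20.2 CPM, 416 cells).

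In the treated libraries the class was made of other clusters, K2 (279 cells), K10 (91) and K13 (79) foremost at oxazolone day 10, K10 (29) and K2 (18) at oxazolone day 16, and K8 (87 of 98 cells, led by Cyp24a1) at MC903 day 9. K3, which held 69 cells at oxazolone day 10 and 173 in untreated skin, had Defb6 at 79.8 and 115 CPM. In K3, 1 cell held 181 of the 253 UMIs at oxazolone day 10 and 1 cell held 220 of the 442 in untreated skin, so neither level is that of the cluster at large. K13, another upper follicle cluster (Krt79, Krt17), stood at 138 CPM in 79 cells of oxazolone day 10. At oxazolone day 16, 180 of the 218 UMIs came from 1 cell. The class difference in Defb6 and the absence of K12 cells from treated libraries cannot be told apart.

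Defb14 had 85 UMIs at oxazolone day 16, of which 44 came from 1 keratinocyte-like cell and 31 from 1 neutrophil-like cell. All 9 untreated UMIs and 6 of 8 at oxazolone day 10 lay in keratinocyte-like cells. Within keratinocyte-like cells over untreated skin, 2 of 6 measured genes were at least 2-fold higher and 3 lower at oxazolone day 10 (beside 11.3% and 7.47% of all genes), 3 of 7 higher and 2 lower at oxazolone day 16 (9.49% and 15.8%), and 2 of 6 higher and 4 lower at MC903 day 9 (4.43% and 18.2%). The higher genes were S100a8 and S100a9 in each case, with Defb14 at oxazolone day 16 mostly from that 1 cell. With the neutrophil profile taken off at the median marker percent, 0 genes were higher at oxazolone day 10 and 1 at MC903 day 9. The share of all genes was not counted after this removal. Defb6 and Camp were lower in all 3.

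Other antimicrobial genes, 30 listed by name, gave 10 higher and 5 lower of 17 measured at oxazolone day 10, 10 and 6 of 17 at oxazolone day 16, and 10 and 4 of 18 at MC903 day 9 (beside 12% and 10.4%, 15% and 39.4%, and 12.5% and 12.2% of all genes), with median log2 ratios over untreated skin of 1.96, 2.17 and 1.55. Wfdc21, a whey acidic protein domain gene, was higher by log2 9.31, 10.3 and 8.01, with 94.9%, 94.7% and 53.5% of its UMIs in neutrophil-like cells. Lcn2, which sequesters bacterial siderophores, was higher by 5.15, 6.62 and 4.83, and Ltf, the iron-binding lactoferrin, by 6.62, 7.39 and 4.09. Chil3, a chitinase-like lectin gene, was higher by 5.98, 8.62 and 6.27, with most UMIs in macrophage-like cells. Defb1, like Defb6 a beta-defensin gene, was lower by 2.54, 6.22 and 5.87.

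Among 19 listed receptors and inducers, 5 of 16 measured were at least 2-fold higher and 2 lower at oxazolone day 10, 10 and 1 at oxazolone day 16, and 8 and 2 at MC903 day 9, over untreated skin, beside the same shares of all genes. The counts of lower genes at oxazolone day 10 and MC903 day 9 are close to the share of all genes. Fpr2, a formyl peptide receptor that also binds cathelicidin peptides in humans, was higher by log2 6.97, 8.96 and 6.36 and lay mostly in neutrophil-like cells. Il1b, the IL-1 family cytokine, was higher by 2.98, 6.19 and 3.98, and Cd36, a scavenger receptor that binds S100A8 and S100A9 with fatty acids in humans, was higher by 1.68, 3.84 and 2.39. Il17a and Il17f, cytokines that induce antimicrobial genes in keratinocytes, were higher by 3.95 and 3.88 at oxazolone day 16, with 95.1% and 94.8% of their UMIs in gamma delta T-like cells. Il17f was also higher at MC903 day 9, by log2 2.61 (183 UMIs), with 79.2% of its UMIs there in alpha beta T-like cells. At oxazolone day 10 the log2 ratios of Il17a and Il17f over untreated skin were -1.41 and -0.83, and that of Ccr6, the receptor that beta-defensins bind, was -1.50.

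Across the 67 class and library pairs with at least 50 cells, S100a8 and S100a9 were most like each other (Pearson r = 0.972 of log2(CPM + 1)), and next came Retnlg (0.930 with S100a8, 0.953 with S100a9) and then Slfn4 (0.909 with S100a8) and Cstdc4 (0.895 with S100a9). Reg3g and Reg1 were also each other's nearest (0.879), followed by Gpr39 and Gm49257 for Reg3g (0.828 and 0.826) and Gm49257 and Cxcl5 for Reg1 (0.874 and 0.834). Ngp was nearest Mrgpra2b, Ly6g and Fpr1 (0.926, 0.914 and 0.911), and Camp nearest Lin28a, Prok2 and Cstdc6 (0.665, 0.664 and 0.659). Slpi was nearest Ptgs2, Acod1 and Lcn2 (0.824, 0.803 and 0.802), Wfdc2 nearest Gdf5, Uts2r and Chad (0.940, 0.911 and 0.897), and Defb6 nearest Calm4, Ly6d and Krt15 (0.872, 0.871 and 0.830). The points share 4 libraries, their depth and any RNA that moved between cells, so these values describe the libraries only.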

How the data were processed

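Skin cell suspensions of 4 libraries were measured. The authors deposited UMI counts per gene and barcode, unnormalised. Per the file headers these came from Cell Ranger 7.2.0 (oxazolone day 10 and untreated) and 8.0.0 (oxazolone day 16 and MC903 day 9), while Cell Ranger 8.0 with mm10 is what the submitters' processing notes give. The effect of the mixed versions was not tested.

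From the counts, barcodes were kept from 300 genes up and to 15% of mitochondrial UMIs (407, 290, 342 and 53 removed at oxazolone day 10, oxazolone day 16, MC903 day 9 and in untreated skin). The highest doublet scores of Scrublet (scanpy 1.11.5) were then removed at 0.8% per 1000 barcodes (578, 519, 129 and 478). Cells were clustered with leidenalg 0.10.2 on 2000 variable genes and 30 components at resolution 1, without the members and the other antimicrobial genes. Leukocytes and keratinocytes were clustered a second time. A cluster was named from the highest of 28 marker sets when at least 3 markers were in at least 20% of its cells. This set also had to lead sets of unrelated cell types by a mean log2 of 0.5. Sets of related types, such as basal and upper follicle keratinocytes or macrophages and dendritic cells, needed no such margin. These thresholds were set after clusters were seen. CPM scale a gene's UMIs to the total of a library or class. Ratios carry exact conditional binomial 95% intervals, single levels exact Poisson ones (scipy 1.17.1). A gene with 30 UMIs in a pair of libraries was measured, 2-fold was called, and a count of 0 was set to 3 UMIs. Classes were compared from 50 cells in both libraries, except where cell numbers are given. The ratio script was tested on simulated counts.

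The members and all lists were chosen with earlier results of these data known. Named besides members were at most 4 listed genes of largest ratio per comparison and the 3 genes of most similar pattern; leading genes of clusters and neutrophil precursor genes were named after their values were seen. Alternatives covered cell filters, doublets, resolution, class gates, scaling, thresholds and removal of neutrophil RNA.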

Additional observations from a re-analysis of the deposited data

How the results depend on the processing

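With 1 library per group, no library could be left out, and cell numbers limit most class values, above all the 19 untreated neutrophil-like, 59 keratinocyte-like (oxazolone day 16) and 32 monocyte-like (MC903 day 9) cells. No paired analysis was possible because each group is a single library. Of 112 recomputed counts of members at least 2-fold higher, 105 stayed within 1.5 times the reported count. Levels were less stable, with 708 of 2930 recomputed levels outside their counting interval, and 54 of 56 shares of cells with a UMI moved when cells were not thinned. Over the whole library, the count for oxazolone day 16 over oxazolone day 10 was 3 at a 4-fold threshold, against 5 at 2-fold. When the neutrophil profile was taken off each class at the pooled or at the median percent of the markers (the median chosen after seeing the data), the count in keratinocyte-like cells became 0 at oxazolone day 10 (2 before) and 1 at MC903 day 9 (2 before). In fibroblast-like cells at MC903 day 9 the count of 7 became 4 at the pooled percent and 2 in cells with no UMI of the 8 markers. The share of all genes was not counted at 4-fold or under these removals, so the changed counts have no yardstick.

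Of 891 recomputed log2 ratios, 13 changed sign, all but 2 of them because taking off the neutrophil profile left 0 UMIs, so that their values are bounds set by the floor of 3 UMIs and not measured ratios. At either percent S100a8 became at most log2 -2.03 in keratinocyte-like and -2.49 in fibroblast-like cells at oxazolone day 10, and S100a9 at most -3.30 in fibroblast-like cells at that time. At the pooled percent, which Il1r2 raises in fibroblast-like cells, S100a8 and S100a9 there became at most -2.63 and -3.45 at oxazolone day 16, and S100a8, S100a9 and Slpi at most -3.82, -4.64 and -4.68 at MC903 day 9. Keeping doublets gave Slpi 0.24 in keratinocyte-like cells at MC903 day 9, and the mean of per-cell CPM gave Wfdc2 0.28 in fibroblast-like cells at MC903 day 9; the cause was not tested. Every ratio of Reg3g and Reg1 in fibroblast-like cells and of Defb6 in keratinocyte-like cells kept its direction under the alternatives run.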
